A study of Mus musculus with 16 samples.

Results

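Ddc, Slc18a2, Slc6a3 and Slc6a4 encode the enzyme and the transporters that make, store and take back dopamine and serotonin, and they were taken by symbol from a table of 770 panel genes, of which these are 4. Transcripts were counted with the nCounter Neuropathology panel, a hybridization assay with 1 barcoded probe per gene and no amplification, in total RNA of the whole brain of 16 female mice aged 6 months. Each genotype had 4 animals. Grn KO mice lacked Grn, which encodes the lysosomal and secreted protein progranulin. Trem2 KO mice lacked Trem2, which encodes a lipid-sensing receptor of microglia. Double KO mice lacked both genes, and WT mice carried both. The labels give no construct or background strain for the knockouts, and no deletion or treatment shared with WT. They give each animal a number of its own and do not say whether animals were littermates. The comparisons ask what loss of either gene did, what loss of both did, and whether the effect of one loss depended on the other.

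Ddc (aromatic L-amino acid decarboxylase) makes dopamine from L-DOPA and serotonin from 5-hydroxytryptophan. Slc18a2 (the vesicular monoamine transporter VMAT2) loads dopamine, serotonin, noradrenaline and histamine into vesicles. Slc6a3 (the dopamine transporter) and Slc6a4 (the serotonin transporter) return their transmitter to the releasing neuron. In the brain, Slc6a3 marks dopamine neurons, mainly of the midbrain, and Slc6a4 marks serotonin neurons of the raphe, whereas Ddc and Slc18a2 are used by both classes. Such neurons are few, so in whole-brain RNA their transcripts are dilute. In such bulk RNA, fewer cells of a type and less RNA per cell cannot be told apart.

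Values are deposited counts scaled by 1 factor per animal, here called normalized counts. Whole counts recovered from them summed to between 477113 and 767742 per animal over the panel genes. The background threshold, the mean plus 2 SD of an animal's negative control probes on the same scale, ran from 16.3 to 39.1 normalized counts. Negative controls were lower on average in every mutant genotype, at a group mean of 13.4 normalized counts in Grn KO, 14.2 in Trem2 KO and 14.7 in Double KO, against 18.3 in WT. Grn was below the threshold in all 8 animals labelled as lacking it and between 544.39 and 661.81 in the other 8. Trem2 was between 5.02 and 20.38 normalized counts in 7 of the 8 animals labelled as lacking it, 35.40 and thus above background in Trem2 KO replicate 1, and between 127.90 and 251.12 in the rest. Markers of the cell types of brain were present, with 4 oligodendrocyte genes summing to between 4398.71 and 7044.99 normalized counts and 8 microglial genes to between 1426.83 and 2011.05. Differences between genotypes were tested with limma on log2(value + 1) over the 708 genes with a mean of at least 20, all 4 members included, with Benjamini-Hochberg adjustment over those genes.

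The promoters of the 4 genes are shown because 3 of the genes varied together between animals, as described after the values. The sequences are RefSeq's for mouse build GRCm38.p6, 250 bases before to 50 bases after the annotated start, on the strand of the gene. The table lists 2 starts for Ddc and 1 for each of the other members. Capitals mark matches on either strand to 4 motifs: the TATA box TATAAA, the GC box GGGCGG, the cAMP response element TGACGTCA, and AAAGGTCA, the site of Nr4a nuclear receptors, whose member Nr4a2 is required for midbrain dopamine neurons.
Slc6a3, chr13:73536497-73536796, plus strand: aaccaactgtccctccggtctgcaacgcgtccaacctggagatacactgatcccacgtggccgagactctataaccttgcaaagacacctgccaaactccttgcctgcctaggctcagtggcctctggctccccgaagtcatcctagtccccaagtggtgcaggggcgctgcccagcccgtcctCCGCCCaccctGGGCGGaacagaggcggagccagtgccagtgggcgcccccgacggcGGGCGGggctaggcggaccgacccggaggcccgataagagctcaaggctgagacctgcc
Slc6a4, chr11:76998347-76998646, plus strand: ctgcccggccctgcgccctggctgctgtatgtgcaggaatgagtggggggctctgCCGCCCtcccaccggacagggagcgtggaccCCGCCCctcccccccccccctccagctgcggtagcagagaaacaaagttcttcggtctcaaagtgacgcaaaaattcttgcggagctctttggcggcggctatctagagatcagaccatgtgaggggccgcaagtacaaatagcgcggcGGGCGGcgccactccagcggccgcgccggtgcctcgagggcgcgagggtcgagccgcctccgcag
Slc18a2, chr19:59260628-59260927, plus strand: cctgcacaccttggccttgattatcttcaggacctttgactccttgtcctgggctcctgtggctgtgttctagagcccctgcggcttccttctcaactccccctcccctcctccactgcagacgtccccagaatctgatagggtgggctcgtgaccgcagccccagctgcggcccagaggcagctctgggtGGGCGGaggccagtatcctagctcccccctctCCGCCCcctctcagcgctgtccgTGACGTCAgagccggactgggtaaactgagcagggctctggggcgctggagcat
Ddc start 1, chr11:11898095-11898394, minus strand: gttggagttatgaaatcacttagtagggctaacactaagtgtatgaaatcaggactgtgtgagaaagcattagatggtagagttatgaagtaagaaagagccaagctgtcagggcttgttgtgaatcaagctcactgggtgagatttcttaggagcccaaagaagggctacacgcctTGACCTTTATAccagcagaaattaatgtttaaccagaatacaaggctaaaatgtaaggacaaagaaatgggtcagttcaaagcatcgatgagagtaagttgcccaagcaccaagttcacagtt
Ddc start 2, chr11:11890359-11890658, minus strand: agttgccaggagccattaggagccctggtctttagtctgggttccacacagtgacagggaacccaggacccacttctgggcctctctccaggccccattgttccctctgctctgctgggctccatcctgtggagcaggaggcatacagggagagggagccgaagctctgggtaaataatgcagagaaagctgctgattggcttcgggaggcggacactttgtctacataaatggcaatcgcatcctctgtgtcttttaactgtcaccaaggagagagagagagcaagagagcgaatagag

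The 3 transporter promoters held GC boxes, 3 in Slc6a3, 3 in Slc6a4 and 2 in Slc18a2, and neither Ddc window held one. The GC box occurs in 35.7% of all 32851 promoters of the table. Slc18a2 also held a cAMP response element whose first base lies at -4 from the start, a motif found in 1.79% of promoters. Ddc start 1 held an Nr4a site on the reverse strand with its first base at -73, found in 1.51% of promoters, and a reverse TATA box at -68 that overlaps its last 3 bases. The TATA box occurs in 13.6% of promoters, and Ddc start 2 held none of the 4 motifs. The window of Slc6a3 was 66.0% G and C, that of Slc6a4 67.7% and that of Slc18a2 64.0%, while Ddc start 1 was 41.3% and Ddc start 2 was 54.3%. None of the 4 motifs was held by all of Slc6a3, Slc18a2 and Ddc, the 3 genes that varied together. Whether promoter sequence bears on that co-variation was not tested. Which Ddc start the brains used was not measured.

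Ddc, the shared synthesis enzyme, was the least variable member and lay above background in all 16 animals. It measured 41.74, 78.41, 70.43 and 91.08 normalized counts in the 4 Grn KO brains. In Trem2 KO brains it measured 67.13, 49.89, 71.71 and 50.62. In Double KO brains it measured 50.20, 66.75, 58.66 and 57.06, against 71.86, 75.94, 97.90 and 79.13 in WT brains. All Trem2 KO and all Double KO values lay below the lowest WT value, the first only narrowly, with 71.71 in Trem2 KO replicate 3 against 71.86 in WT replicate 1. Those 2 values rest on 66 and 62 recovered counts, with a counting error (SD) of 8.83 and 9.13 normalized counts. This order is therefore not resolved. The highest Double KO value, 66.75 in replicate 2, has a counting SD of 8.04, so its order with WT replicate 1 is not resolved either. The means were 70.4 ± 20.9 in Grn KO, 59.8 ± 11.2 in Trem2 KO and 58.2 ± 6.80 in Double KO, against 81.2 ± 11.5 in WT (SD, n = 4 each). WT was highest, then Grn KO, Trem2 KO and Double KO, and each neighbouring pair in that order differed by less than the larger of its SDs.

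No change of Ddc passed limma's test after adjustment. The log2 fold change was -0.44 (SE 0.20; 95% interval -0.86 to -0.02; adjusted p = 0.804) in Trem2 KO over WT and -0.47 (SE 0.20; interval -0.89 to -0.05; adjusted p = 0.569) in Double KO over WT. It was -0.25 (SE 0.20; adjusted p = 0.996) in Grn KO over WT, where the groups overlapped. Double KO brains differed from Grn KO brains by -0.22 and from Trem2 KO brains by -0.03 on the log2 scale (SE 0.20 each).

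Slc18a2, the vesicular transporter, was above background in all 16 animals. Its normalized counts were 60.80, 114.43, 88.04 and 145.74 in Grn KO brains. They were 107.41, 56.00, 103.21 and 59.06 in Trem2 KO brains. They were 42.16, 107.38, 101.93 and 86.94 in Double KO brains, against 67.22, 116.91, 139.44 and 135.81 in WT brains. Every genotype held both high and low animals, and all groups overlapped. The means were 102 ± 36.3 in Grn KO, 81.4 ± 27.7 in Trem2 KO and 84.6 ± 29.6 in Double KO, against 115 ± 33.3 in WT (SD, n = 4 each), and no 2 genotypes next to each other in level differed beyond these SDs. The log2 fold changes over WT were -0.18 in Grn KO, -0.50 in Trem2 KO and -0.47 in Double KO, with an SE of 0.34 each and limma adjusted p of 0.996, 0.806 and 0.716.

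Slc6a3, the dopamine transporter, had similar means in the 4 genotypes and widely different values between animals of a mutant genotype. It measured 21.78, 74.17, 33.86 and 77.15 normalized counts in Grn KO brains. Trem2 KO brains had 96.43, 41.75, 59.75 and 22.15, the last of them below background. Double KO brains had 32.13, 104.48, 57.70 and 42.11, against 57.95, 45.96, 74.17 and 51.33 in WT brains. The highest animal stood above the lowest 3.54-fold in Grn KO, 4.35-fold in Trem2 KO and 3.25-fold in Double KO, against 1.61-fold in WT. The within-genotype SD on the log2 scale was 0.87, 0.87 and 0.72 in the mutants in that order and 0.29 in WT, a difference in spread between groups of 4 that was not tested. The means were 51.7 ± 28.1 in Grn KO, 55.0 ± 31.6 in Trem2 KO and 59.1 ± 32.0 in Double KO, against 57.4 ± 12.2 in WT (SD, n = 4 each). Double KO was highest, then WT, Trem2 KO and Grn KO, and no neighbours in that order differed beyond their SDs. Log2 fold changes over WT were -0.31 in Grn KO, -0.22 in Trem2 KO and -0.08 in Double KO, with an SE of 0.46 each. The interval of the Double KO fold change, -1.06 to 0.91, still spans changes of the size seen between animals.

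Slc6a4, the serotonin transporter, was the most variable member and the one nearest to background, and its mean was lowest in the genotypes without Trem2. It measured 11.80, 26.49, 54.18 and 85.73 normalized counts in Grn KO brains. It measured 7.32, 13.24, 45.63 and 14.76 in Trem2 KO brains. It measured 21.08, 13.54, 26.93 and 13.58 in Double KO brains, against 27.82, 37.97, 72.19 and 60.95 in WT brains. Every Double KO value lay below every WT value, with 26.93 in Double KO replicate 3 against 27.82 in WT replicate 1, which was below its own background threshold of 39.1. Those 2 values rest on 28 and 24 recovered counts, with a counting SD of 5.09 and 5.68 normalized counts, so this order is not resolved either. Trem2 KO and WT overlapped through 1 animal, Trem2 KO replicate 3. Grn KO replicate 1, at 11.80, was lower than all 4 Double KO animals. Counts above the background threshold were found in 3 of 4 Grn KO brains, 1 of 4 Trem2 KO brains and 1 of 4 Double KO brains, against 3 of 4 WT brains. The threshold itself was lower in the mutants on average, as given above for the negative controls. The means were 44.6 ± 32.6 in Grn KO, 20.2 ± 17.2 in Trem2 KO and 18.8 ± 6.49 in Double KO, against 49.7 ± 20.4 in WT (SD, n = 4 each). WT was highest, then Grn KO, Trem2 KO and Double KO, and no neighbours in that order differed beyond the larger of their SDs.

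The log2 fold change of Slc6a4 was -1.47 (SE 0.56; 95% interval -2.67 to -0.27) in Trem2 KO over WT, with a limma p of 0.0200 before and 0.804 after adjustment. In Double KO over WT it was -1.32 (SE 0.56; interval -2.52 to -0.12), with a p of 0.0333 before and 0.569 after adjustment. Neither passed. In Grn KO over WT it was -0.40 (SE 0.56; adjusted p = 0.996), and in Double KO over Grn KO it was -0.92 (SE 0.56; adjusted p = 0.764). With values scaled to the positive control probes in place of the deposited scaling, the Trem2 KO change passed at -1.24 (adjusted p = 0.0248). In this setting limma gave every gene the same SE of 0.32. With the negative control mean subtracted, the changes were -2.46 in Trem2 KO and -2.47 in Double KO and neither passed.

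**Figure D1:**
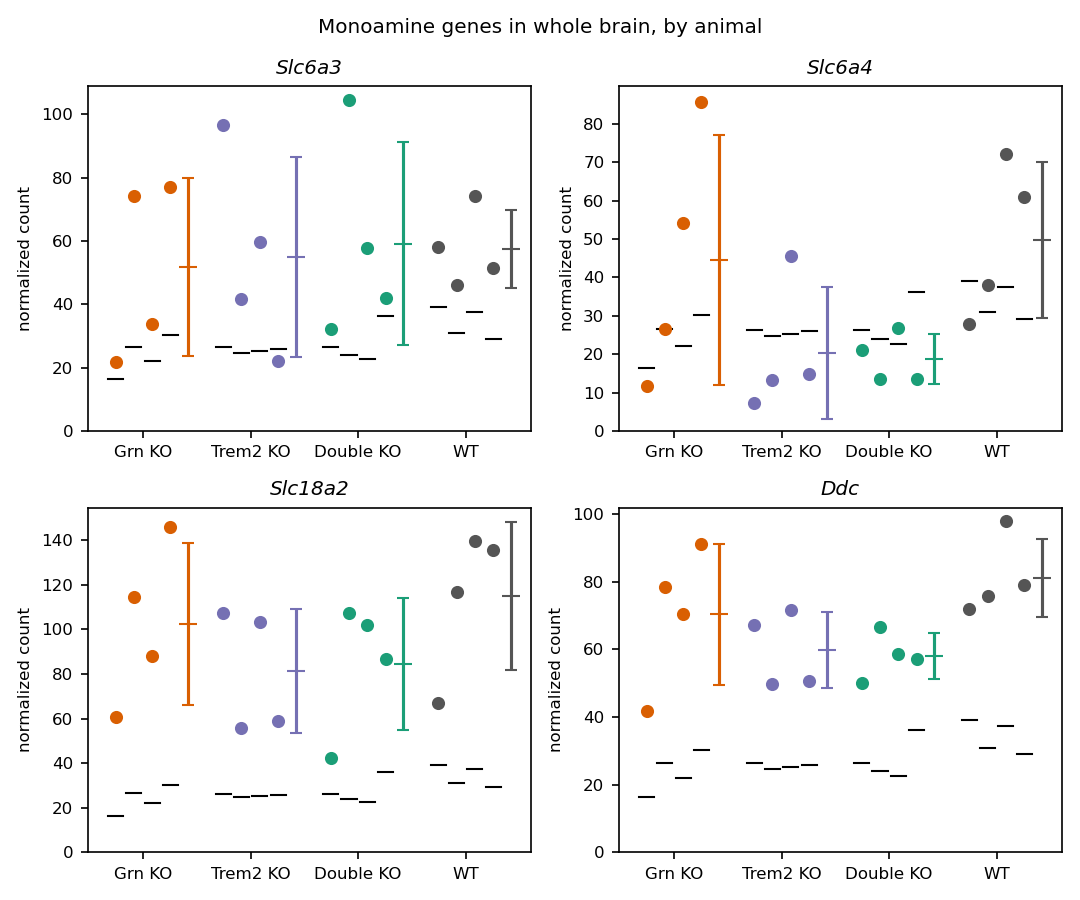
Normalized counts of the 4 genes (vertical axis, from 0) in each of the 16 animals, by genotype. Points are animals, short black bars the background threshold of each animal, and the bar beside each group its mean and SD. For Slc6a4 most Trem2 KO and Double KO points sit below their black bars, and for Slc6a3 the mutants spread more widely than WT around similar means.

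None of the 4 members was called in any of the 6 comparisons. Over the 708 genes, limma called 0.565% in Grn KO over WT, 0.141% in Trem2 KO over WT, 0.282% in Double KO over WT, 0.282% in Double KO over Grn KO, 0.424% in Double KO over Trem2 KO and 0% in the interaction, where 24 genes (3.39%) had an unadjusted p below 0.05. The interaction of the 2 losses was 0.22 for Ddc (SE 0.28), 0.22 for Slc18a2 (SE 0.48), 0.45 for Slc6a3 (SE 0.66) and 0.55 for Slc6a4 (SE 0.80) on the log2 scale. All 4 lie above 0 and none exceeds its SE.

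In mean normalized counts Slc6a3 was highest in Double KO, at 59.1 against 57.4 in WT. On the log2 scale of the fit, all 4 members lay below WT in each mutant genotype. Their fitted changes were below 0 for all 4 in Grn KO (median -0.28), all 4 in Trem2 KO (median -0.47) and all 4 in Double KO (median -0.47), where 58.8%, 55.5% and 50.7% of the 708 genes lay below 0 and the medians of all genes were -0.02, -0.02 and -0.00. These 3 comparisons share the 4 WT animals. Slc6a3, Slc18a2 and Ddc also varied together between animals, as described below, so the 4 genes are not independent. Scaled to the positive controls, under which the median of all genes moved to 0.33 in Grn KO, 0.19 in Trem2 KO and 0.36 in Double KO, the changes of Ddc, Slc18a2 and Slc6a3 in Grn KO and of Slc6a3 in Double KO turned above 0, the last also under quantile normalization (0.071). Relative to the shifted medians of positive control scaling they were -0.23, -0.17, -0.29 and -0.08. Without Grn KO replicate 1 the Grn KO changes of Slc6a3, Slc6a4 and Slc18a2 became 0.04, 0.10 and 0.04, so their sign rested on that animal. The sign of Slc6a3 likewise changed in Trem2 KO without Trem2 KO replicate 4 (0.14) and in Double KO without Double KO replicate 1 (0.16), Double KO replicate 4 (0.04) or WT replicate 3 (0.05).

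Group ranges did not overlap for Ddc in Trem2 KO, and for Ddc and Slc6a4 in Double KO, always with the mutant lower. Of all genes tested, 2.68% were lower without overlap in Trem2 KO over WT and 4.38% in Double KO over WT. The exact two-sided permutation p was 0.0286 for each of the 3, the smallest that 4 against 4 animals can give. For Ddc in Trem2 KO and Double KO, and Slc6a4 in Double KO, it rests on an order that counting error does not resolve. The adjusted values over all genes are those given above. Loss of Trem2 averaged over both states of Grn, a contrast added after the values had been seen, moved Slc6a4 by -1.19 (SE 0.40; limma adjusted p = 0.376, and 0.00903 before adjustment), Ddc by -0.33 (SE 0.14; adjusted p = 0.496), Slc18a2 by -0.39 (adjusted p = 0.700) and Slc6a3 by 0.00 (SE 0.33) on the log2 scale. None of the 4 passed, beside 0.282% of all genes. Gata2, a transcription factor of the serotonin lineage and other cells, was also lower without overlap, at 43.94, 50.91, 40.20 and 43.24 normalized counts in Trem2 KO and 40.16, 40.63, 31.73 and 50.26 in Double KO, against 62.59, 58.95, 62.30 and 62.02 in WT. Counting error alone would give Gata2 an SD of 0.213 on the log2 scale, beside a residual SD of 0.207. The order of its nearest values, 50.91 and 50.26 against 58.95 in WT, is thus not resolved. The limma adjusted p of Gata2 was 0.662 in Trem2 KO and 0.104 in Double KO. Gata2 stands in a list of 17 transcription and trophic factors of monoamine neurons, of which 5 were measured and 4 tested, and none was called. Over WT, 4 of the 4 lay below 0 in Grn KO (median -0.07 on the log2 scale), 1 in Trem2 KO (median 0.11) and 2 in Double KO (median -0.04). The 2 measured genes of a list for brainstem and thalamic neurons, Slc17a6 and Glrb, summed to between 4736.26 and 5074.02 normalized counts in Grn KO. The sums ran from 4389.44 to 5283.38 in Trem2 KO and 4807.12 to 5061.93 in Double KO, against 5038.37 to 5582.06 in WT. Slc17a6 alone had means of 1236 in Grn KO, 1076 in Trem2 KO and 1220 in Double KO, against 1373 in WT. The sums thus mostly follow Glrb. Both genes lay below WT in all 3 mutants, and neither was called. The 4 tested of 7 oligodendrocyte markers lay below 0 in all 3 mutant genotypes over WT, with median log2 fold changes of -0.23 in Grn KO, -0.22 in Trem2 KO and -0.31 in Double KO. They summed to between 5123.58 and 6629.71 in Grn KO, 5221.16 and 6271.53 in Trem2 KO and 4398.71 and 6006.47 in Double KO, against 5336.25 to 7044.99 in WT. The 4 tested of 6 astrocyte markers had medians of 0.01, -0.22 and -0.04 in the same order, with 1, 4 and 2 of them below 0. The 3 tested of 8 cortex and hippocampus markers lay above 0 in all 3 mutants, with medians of 0.12, 0.10 and 0.41. None of the markers in these 3 lists was called. Neither were Calb1 and Itpr1, the 2 measured genes of a list of 9 for cerebellum. Their sums ran from 3152.61 to 7436.3 in Grn KO and 5849.19 to 7081.42 in Trem2 KO. They ran from 4925.25 to 5446.1 in Double KO, against 5037.21 to 5460.75 in WT. Both were higher without overlap in Trem2 KO over WT, where 3.39% of genes tested did not overlap in either direction. Whether these sums follow the members' deviations was not tested. The part of these values, and of the lower background counts, in the changes of Slc6a4 and Ddc was not tested.

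**Figure D2:**
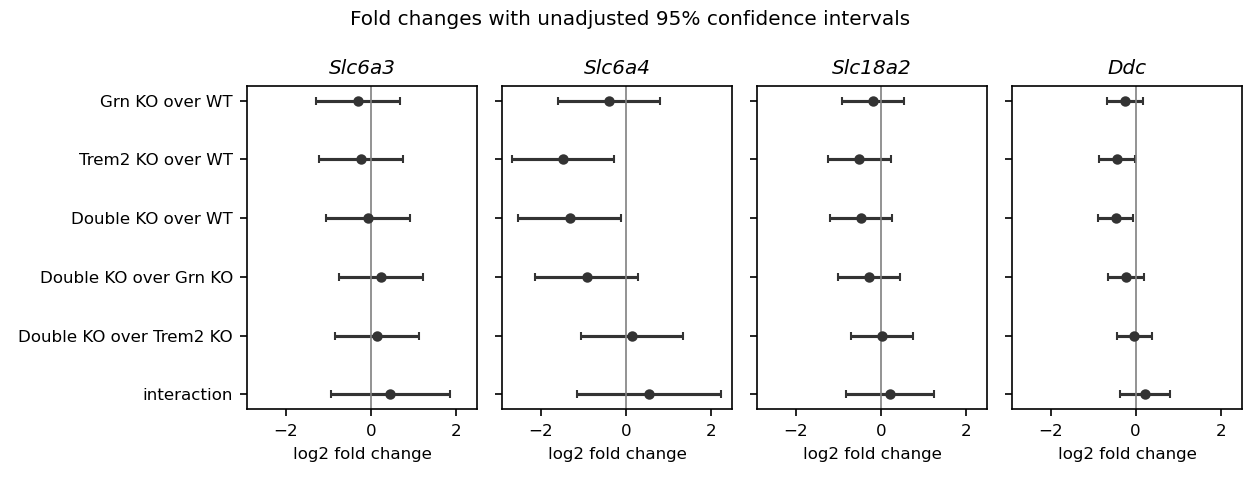
Log2 fold changes (horizontal axis) of the 4 genes in the 5 pairwise comparisons, and the interaction of the 2 losses, with limma's unadjusted 95% intervals. Intervals of Slc6a4 and Ddc in Trem2 KO over WT and Double KO over WT lie below 0, all others cross it, and none of the 24 passed after adjustment.

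The spread between animals of one genotype was large for these genes. The residual SD on the log2 scale was 0.89 for Slc6a4, rank 2 of 708 genes, 0.73 for Slc6a3, rank 8, 0.54 for Slc18a2, rank 17, and 0.30 for Ddc, rank 90, beside a median of 0.158 over all genes. Weak genes vary more through counting alone. Counting error would give an SD of 0.310 for Slc6a4, 0.216 for Slc6a3, 0.161 for Slc18a2 and 0.184 for Ddc, so the measured SDs were 2.86, 3.37, 3.34 and 1.65 times as large. Among the 107 genes whose mean lay within the range of the members, 33.3 to 95.8 normalized counts, the median ratio was 1.27. In that window the SDs of Slc6a4, Slc6a3, Slc18a2 and Ddc ranked 2, 4, 7 and 31.

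Th (tyrosine hydroxylase, which makes L-DOPA) and Dbh (dopamine beta-hydroxylase, which makes noradrenaline from dopamine) were as variable, with residual SDs of 0.61 and 0.67 on the log2 scale, ranks 11 and 9. Receptor genes had smaller SDs, at 0.40 for Drd1, 0.33 for Drd2, 0.17 for Htr1a, 0.21 for Htr5a and 0.16 for Adra2a. Dbh and Th thus had the largest SDs among the 9 other pathway genes tested. Relative to counting error the order differed, with SDs 5.96 times the counting SD for Drd1, 3.23 times for Th, 2.48 times for Drd2 and 2.37 times for Dbh, so on that measure Drd1 exceeded every member.

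**Figure D3:**
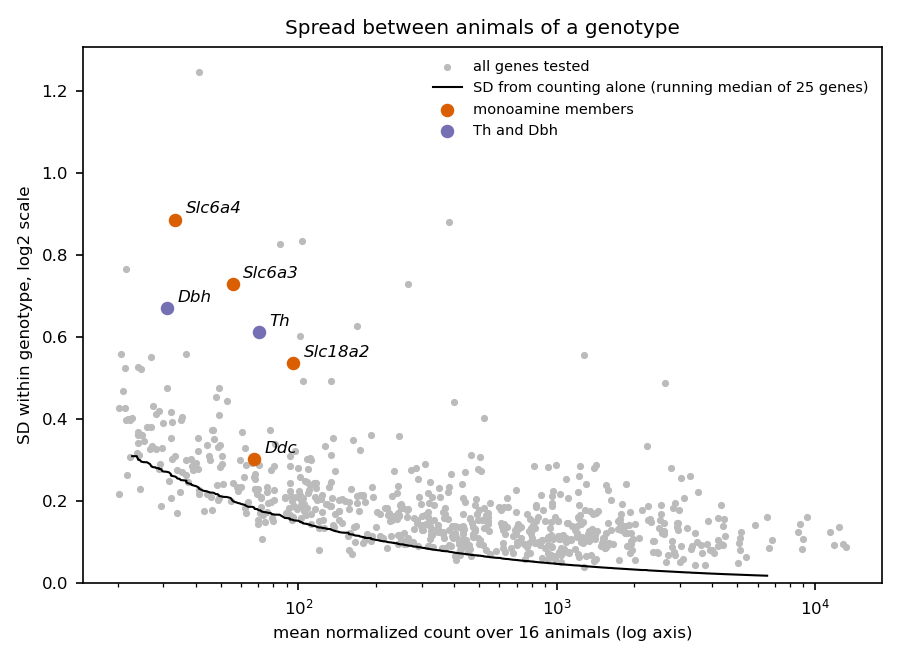
Residual SD within genotype on the log2 scale (vertical axis) against the mean normalized count (horizontal log axis) of the 708 genes tested. The line is the running median of the SD that counting alone would give. The 4 genes lie above the line, with Slc6a4, Slc6a3 and Slc18a2 among the 17 most variable genes and Ddc closer to genes of its level.

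Ddc, Slc18a2 and Slc6a3 varied together from animal to animal within a genotype. Expressed as deviations from the genotype mean on the log2 scale over the 16 animals, Slc18a2 and Ddc correlated with a Pearson r of 0.82 and a Spearman rho of 0.83. Slc6a3 and Ddc gave r = 0.82 and rho = 0.78, and Slc6a3 and Slc18a2 gave r = 0.75 and rho = 0.81. The permutation p, over 100000 permutations within genotype and adjusted over the 6 member pairs, was 0.00069 for the first 2 pairs and 0.00718 for the last. Leaving out the 2 animals farthest from the median of the first gene of a pair gave r = 0.85, 0.77 and 0.68, with adjusted permutation p of 6e-04, 0.0165 and 0.0498. Leaving out all Grn KO animals gave r = 0.67 and an adjusted permutation p of 0.0778 for Slc6a3 and Slc18a2, and positive control scaling gave r = 0.56 and an adjusted permutation p of 0.05004 for Slc6a3 and Ddc. The deviations of all 3 genes lay on one side of their genotype means in 11 of 16 animals, namely 3 of 4 Grn KO, 4 of 4 Trem2 KO and 3 of 4 Double KO animals, and 1 of 4 WT animals.

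Single animals show the pattern. Grn KO replicate 1 was below its genotype mean by 1.03 for Slc6a3, 0.67 for Slc18a2 and 0.69 for Ddc on the log2 scale, the lowest of its group in each. Grn KO replicate 4 was the highest of its group in each, at 0.75, 0.58 and 0.42. Double KO replicate 1 was lowest and Double KO replicate 2 highest for the 3 genes, at -0.72, -0.90 and -0.20 against 0.95, 0.43 and 0.20. The pattern did not hold in 5 animals, 3 of them WT. WT replicate 1 had Slc6a3 at 0.04, Slc18a2 at -0.71 and Ddc at -0.16. WT replicate 2 stood at -0.29, 0.08 and -0.09 and WT replicate 4 at -0.13, 0.30 and -0.03 for the same genes. The others were Grn KO replicate 3 and Double KO replicate 4.

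Slc6a4 gave lower r with the other 3, and none of its pairs passed once genotype means were removed. With Ddc it gave r = 0.62 and rho = 0.46 (adjusted permutation p = 0.0924), with Slc18a2 r = 0.43 and rho = 0.31 (adjusted permutation p = 0.167), and with Slc6a3 r = 0.19 and rho = 0.04 (adjusted permutation p = 0.578). Without the 2 animals farthest from the median of Slc6a4, r was 0.71 with Ddc and 0.53 with Slc18a2, and without those farthest for Slc6a3 it was -0.16 with Slc6a3. Leaving out Trem2 KO replicate 1, where Slc6a4 was lowest of all animals and Slc6a3 second highest, brought r with Ddc to 0.78 and with Slc18a2 to 0.61, and both then passed. On values without the genotype means removed, in which differences between genotypes also enter, Slc6a4 gave r = 0.75 and rho = 0.80 with Ddc (adjusted permutation p = 0.00315), r = 0.56 and rho = 0.59 with Slc18a2 (adjusted permutation p = 0.0313) and r = 0.17 with Slc6a3 (adjusted permutation p = 0.52). The first 2 passed, beside r = 0.84 for Slc18a2 and Ddc, 0.70 for Slc6a3 and Slc18a2 and 0.69 for Slc6a3 and Ddc on the same values. Whether the 3 correlations of Slc6a4 differ from those among the other genes was not tested. The log2 ratio of Slc18a2 to Ddc within an animal had an SD of 0.335, that of Slc6a3 to Slc18a2 0.479 and that of Slc6a3 to Ddc 0.511. Ratios with Slc6a4 were looser, with SDs of 0.736 to Ddc, 0.817 to Slc18a2 and 1.03 to Slc6a3.

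**Figure D4:**
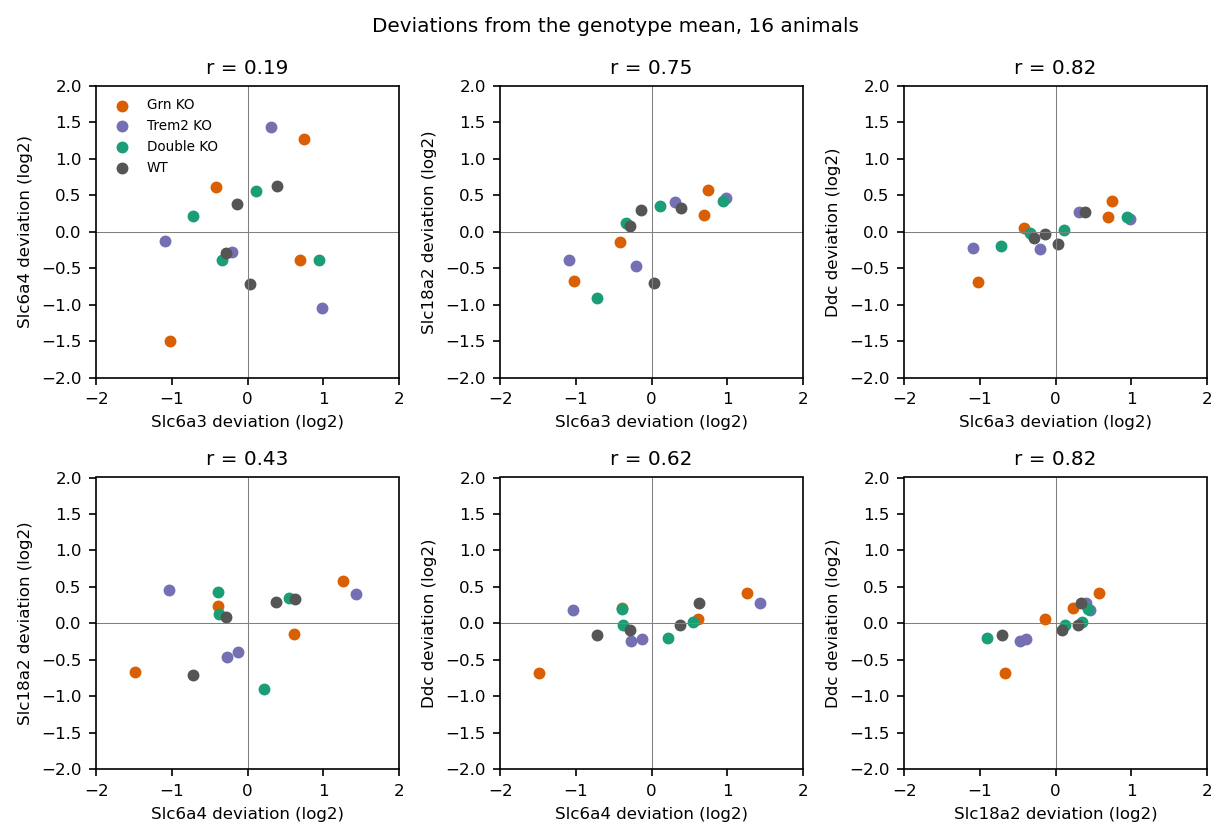
Deviations from the genotype mean on the log2 scale of each pair of genes, 1 point per animal, coloured by genotype, with Pearson r over 16 animals. The pairs of Slc6a3, Slc18a2 and Ddc follow a common line over the 16 animals (r = 0.75 to 0.82), though 3 of 4 WT animals had the 3 genes on different sides of their means, and those with Slc6a4 scatter more (r = 0.19 to 0.62).

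No relation of a member's deviations with a depth measure passed. The 12 relations were those of the 4 members with the total gene count, the positive control sum and the scaled negative control mean. Their smallest adjusted permutation p was 0.511 for rho and 0.553 for r. The strongest r was 0.49, between Slc6a3 and the positive control sum. Without the 2 animals farthest from the measure's median, r with the total gene count was -0.57 for Slc6a3 and -0.54 for Ddc. With the scaled negative control mean it was 0.57 for Ddc. These were then the strongest relations, and they were not tested. In the 8 animals with higher and the 8 with lower positive control sums, r was 0.90 and 0.86 for Slc18a2 and Ddc, 0.83 in each for Slc6a3 and Ddc, and 0.84 and 0.87 for Slc6a3 and Slc18a2. The pairs of Slc6a4 gave, in the same order, 0.48 and 0.78 with Ddc, 0.23 and 0.71 with Slc18a2 and -0.03 and 0.49 with Slc6a3. The difference between these sets of 8 animals was not tested. The labels name no cartridge or run, so no batch could be set.

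Set among all 250278 pairs of the 708 genes, whose median r was 0.06 and 99th percentile 0.79, 0.654% of pairs reached the r of Slc18a2 and Ddc, 0.694% that of Slc6a3 and Ddc and 1.67% that of Slc6a3 and Slc18a2. For Slc6a4 the shares were 5.48% with Ddc, 16.6% with Slc18a2 and 37.1% with Slc6a3. All these pairs share the same 16 animals, so the shares are a description. For Slc6a3 the nearest of the 707 other genes were Ddc, Slc18a2, C1qb (a complement subunit made by microglia, r = 0.71), Casp8 (an apoptotic caspase, r = 0.70) and Th (r = 0.68). For Ddc they were Slc18a2, Slc6a3, Th (r = 0.70), Cxcl16 (a chemokine, r = 0.69) and C1qb (r = 0.68). For Slc18a2 they were Ddc, Slc6a3, Nol3 (an apoptosis repressor, r = 0.67), Chrm5 (a muscarinic receptor of midbrain dopamine neurons, r = 0.63, above background in 8 of 16 animals) and Atp6v1h (a subunit of the vacuolar proton pump, r = 0.62). Thus each of the 3 genes had the other 2 as its nearest genes. For Slc6a4 the nearest were Aldh1l1 (an astrocyte enzyme, r = 0.74), Flt4 (a receptor of lymphatic growth factors, r = 0.72), Chrna7 (a nicotinic receptor subunit, r = 0.70), Atp6v0e2 (a proton pump subunit, r = 0.68) and Bcas1 (an oligodendrocyte gene, r = 0.65), with Ddc at rank 9. Ntf3, which encodes neurotrophin-3, was the gene most opposed to Slc6a3, Slc18a2 and Ddc, with r of -0.78, -0.79 and -0.84.

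**Figure D5:**
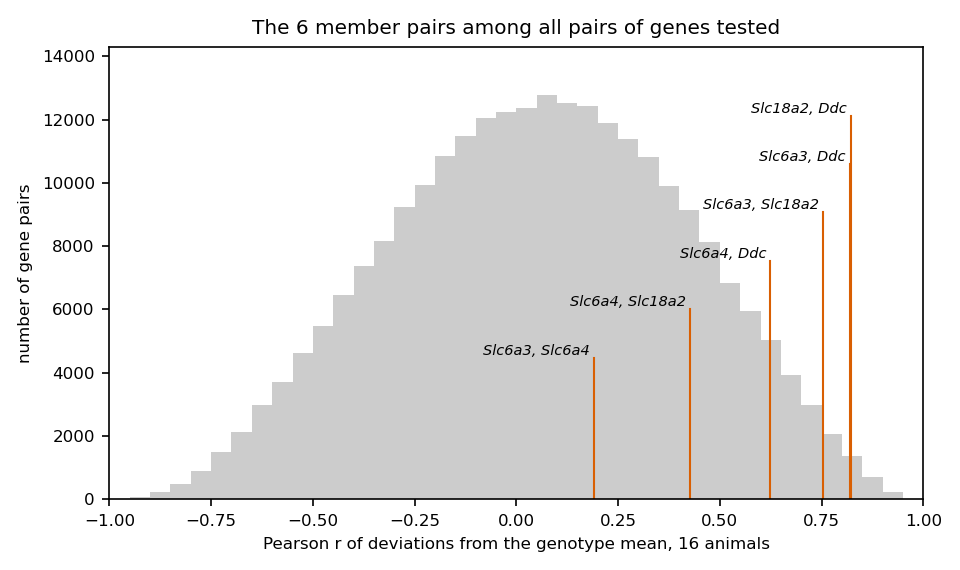
Distribution of Pearson r of deviations from the genotype mean over all 250278 pairs of genes tested (grey bars, number of pairs on the vertical axis), with the 6 pairs of the 4 genes as vertical lines whose heights serve only to separate the labels. The 3 pairs among Slc6a3, Slc18a2 and Ddc stand in the right tail and the pair of Slc6a3 and Slc6a4 in the bulk.

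Other genes of monoamine synthesis, transport, breakdown and reception numbered 49 on the list used, and 10 of them were measured, among them Th, Dbh, Drd1, Drd2, Drd4, Htr1a, Htr5a and Adra2a. The 9 tested gave 0 calls in each of the 6 comparisons, beside the shares of all genes given above, and their median log2 fold changes were -0.12 in Grn KO, 0.00 in Trem2 KO and 0.01 in Double KO over WT. Drd4, a dopamine receptor, stayed below background in all 16 animals and was not tested. Th measured 20.87, 91.12, 51.47 and 85.73 normalized counts in Grn KO brains. It measured 58.59, 70.26, 90.17 and 46.40 in Trem2 KO brains. It measured 82.32, 141.24, 62.50 and 82.87 in Double KO brains, against 90.41, 44.96, 52.41 and 57.75 in WT brains, where replicate 1 was above all the others. Th thus lay at -0.13 in Grn KO, 0.12 in Trem2 KO and 0.56 in Double KO over WT on the log2 scale (adjusted p = 0.996, 0.960 and 0.715), with all groups overlapping.

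Over the 16 animals Th correlated with Ddc at r = 0.70 and with Slc6a3 at r = 0.68, and neither passed a permutation test adjusted over the 36 relations of the members with 9 pathway genes (adjusted p = 0.430 and 0.230). Without the 2 animals farthest from the median of Th these were 0.20 and 0.41. With Slc18a2 it gave r = 0.35, and with Slc6a4 r = 0.37. The genes nearest to Th were others, led by Nmb (a neuropeptide, r = 0.87), Dlx1 (a transcription factor of forebrain interneurons, r = 0.86) and Slc2a1 (a glucose transporter, r = 0.84), with Dcx (a protein of migrating young neurons, r = 0.81) also near. Dbh, whose neurons are noradrenergic, ran at r = -0.52 with Slc6a3, -0.41 with Ddc, -0.32 with Slc18a2 and -0.35 with Slc6a4, and was above background in 8 of 16 animals. None of the 36 relations passed. Receptor genes, which mark target neurons, gave no r with a member that passed. Drd1 and Drd2, dopamine receptors of striatal neurons, correlated with Slc6a3 at r = 0.23 and 0.40. Htr1a, a serotonin receptor also carried by serotonin neurons, correlated with Slc6a4 at r = 0.35.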

How the data were processed

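Whole-brain RNA was purified with a spin column kit, per the labels' protocols, and hybridized to the panel. The deposited table gives a signal for 770 genes, 6 positive and 8 negative control probes per animal. Neither labels nor headers name the authors' software or normalization, which were therefore read from the values. At least 99.74% of an animal's deposited values are whole multiples of 1 step (tolerance 0.0075 counts), so the deposited signal is a count times 1 factor per animal (0.907 to 1.36), with no background subtracted. Control probes are unscaled.

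Values were taken as log2(value + 1). The 708 genes with a mean of at least 20 were tested in R 4.3.3 with lmFit and eBayes of limma 3.58.1 (4 group means, two-sided, Benjamini-Hochberg over 708 genes, threshold 0.05); 62 genes were not tested. The fit was tested on simulated data. Single genes were also compared by an exact permutation test of 4 against 4 animals. Correlations used log2 deviations from genotype means and 100000 permutations within genotype. A recovered count's error is its square root times the factor and covers counting error only. No pair of animals of a genotype was close enough to be 1 sample deposited again (lowest chi-square over its degrees of freedom 3.32). P-values measure the spread between these animals.

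The members, the gene lists and the tests were chosen with earlier results of these data known. Genes named are the members, the 5 genes nearest to each by r, measured pathway genes (some are not reported here), up to 2 genes of a marker list per comparison, Grn and Trem2. Th's nearest genes and Ntf3 were added after their values were seen. Other settings were other pseudocounts (10 and 0), filters, scalings, background subtraction, priors, animal weights, fits on recovered counts, and leaving out each animal or genotype. Of the 770 symbols, 763 were found as symbols in the RefSeq table of GRCm38.p6.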

Additional observations from a re-analysis of the deposited data

Results flagged for a closer look

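No value of Ddc, Slc18a2, Slc6a3 or Slc6a4 stood apart from the rest of its genotype by Dixon's test. Over these genes, 10 other pathway genes, Gata2, Grn and Trem2, 6 of the 68 groups of 4 animals examined held such a value, and chance gives about 1 in 20. Dbh was 51.67 normalized counts in Trem2 KO replicate 4, against 17.31 to 18.47 in the other Trem2 KO animals. Dbh was 13.90 in WT replicate 4, against 37.09 to 41.97 in the other WT animals. Drd1 was 674.68 in Trem2 KO replicate 3, against 538.88 to 549.28 in the other Trem2 KO animals. Htr1a was 291.06 in Trem2 KO replicate 4, against 226.04 to 227.07 in the other Trem2 KO animals. Gata2 was 58.95 in WT replicate 2, against 62.02 to 62.59 in the other WT animals. The SD of Gata2 in WT was 0.04 on the log2 scale, below the 0.213 that counting error alone would give. Its flagged value is therefore not resolved from the other WT values. Trem2 was 188.28 in Grn KO replicate 3, against 239.57 to 251.12 in the other Grn KO animals.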

How the results depend on the processing

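Over the settings run, 1 of the 24 fold changes of the members was called in any, and only in 1. It was Slc6a4 in Trem2 KO over WT with positive control scaling (-1.24). No paired analysis was possible because the animals' own numbers differ in every group, so that the replicate numbers used here are only names. The quasi-likelihood and negative binomial count models planned were not run, since control probes on another scale share the columns. The cause of the changes below was not tested. Positive control scaling also reversed Slc6a3 (0.036), Slc18a2 (0.16) and Ddc (0.10) in Grn KO over WT, Slc6a3 in Double KO over WT (0.28) and Ddc in Double KO over Trem2 KO (0.12). Quantile normalization and animal weights reversed Slc6a3 in Double KO over WT (0.071 and 0.27). In Double KO over Trem2 KO, animal weights reversed Slc6a4 (-0.067) and Ddc (0.0046), and background subtraction reversed Slc6a4 (-0.0088) and Slc18a2 (-0.0068). The averaged Trem2 change of Slc6a3 became -0.033 with background subtracted, and that of Slc6a4, -1.08, passed with positive control scaling. Leaving out 1 animal, the fold changes of Slc6a3 ranged from -0.56 to 0.037 in Grn KO, -0.55 to 0.14 in Trem2 KO and -0.39 to 0.16 in Double KO over WT, from -0.11 to 0.48 in Double KO over Grn KO, from -0.21 to 0.48 in Double KO over Trem2 KO and from -0.17 to 0.18 for the averaged Trem2 change. Slc6a4 ranged from -0.82 to 0.10 in Grn KO over WT and from -0.20 to 0.63 in Double KO over Trem2 KO. Slc18a2 ranged from -0.42 to 0.041 in Grn KO over WT, from -0.51 to 0.016 in Double KO over Grn KO, from -0.12 to 0.33 in Double KO over Trem2 KO and from -0.0079 to 0.52 in the interaction. Ddc ranged from -0.11 to 0.063 in Double KO over Trem2 KO and from -0.0091 to 0.36 in the interaction.

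For the correlations, r of Slc6a4 and Ddc passed with background subtracted (0.69), quantile normalization (0.71) and positive control scaling (0.82), and that of Slc6a4 and Slc18a2 with positive control scaling (0.61). Positive control scaling took r of Slc6a3 and Ddc to 0.56, just short of the threshold. It multiplies all genes of an animal by 1 factor from its positive controls, whose sums ran from 17588 to 45949. A factor common to all genes can thus enter r under this scaling. The share of all gene pairs that reach these r under it is not reported here. Without the Grn KO animals r was 0.67 for Slc6a3 and Slc18a2 and -0.11 for Slc6a3 and Slc6a4. Leaving out 1 animal, r ranged from -0.10 to 0.45 for Slc6a3 and Slc6a4, 0.26 to 0.61 for Slc6a4 and Slc18a2 and 0.37 to 0.78 for Slc6a4 and Ddc. The pairs among Slc6a3, Slc18a2 and Ddc passed in 24, 24 and 25 of 25 settings (Slc6a3 and Slc18a2, Slc6a3 and Ddc, Slc18a2 and Ddc). SDs moved to 1.07 for Slc6a3, 1.79 for Slc6a4 and 0.67 for Slc18a2 with background subtracted and to 0.64 for Slc18a2 with positive control scaling, and the SD of Slc18a2 ranged from 0.46 to 0.56 when 1 animal was left out.

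Counts of genes called moved from 4 to 1 in Grn KO over WT with positive control scaling. In Trem2 KO over WT the count of 1 became 2 with a mean of at least 50, a trended and robust prior or voom on recovered counts, and 3 with positive control scaling. In Double KO over WT the count of 2 became 8 with quantile normalization, 7 with animal weights and 4 with positive control scaling. In Double KO over Grn KO the count of 2 became 1 with positive control scaling or only these groups fitted, and 6 with animal weights. The interaction gave 1 with positive control scaling, and the averaged Trem2 change gave 4 in place of 2 with animal weights. With 1 animal left out, the counts ranged from 1 to 2, 2 to 6, 1 to 3, 1 to 3 and 2 to 4 for Trem2 KO over WT, Double KO over WT, Double KO over Grn KO, Double KO over Trem2 KO and the averaged change. Slc6a4 lay below background in 8 of 16 animals, so its fold changes, SD and correlations rest partly on background counts.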
